A study of Homo sapiens with 9 samples.

Results

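The ACSL4 inhibitor PRGL493 was compared with untreated control in MDA-MB-231 cells. The comparison takes the 3 libraries whose titles name PRGL493 and the 3 whose titles name control, 6 of the 9 libraries of the series, and describes all genes that passed a filter on low counts. MDA-MB-231 is a human breast adenocarcinoma line of the triple-negative, claudin-low type. Control cells were stably transduced with the empty pLKO.1 lentiviral vector and received no compound. The PRGL493 group was made of the same empty-vector cells given PRGL493. The remaining 3 libraries came from cells with pLKO.1 carrying a short hairpin RNA against ACSL4, and are described below only where both treatments are set against each other. They also enter the fit of all 9 libraries, and so the filter, the scaling and the estimate of spread behind each call. Each group holds 3 libraries labelled as replicates, all of a single line. The labels give neither dose, exposure time nor vehicle for PRGL493, and no vehicle-treated group is named, so an effect of a solvent and an effect of the compound cannot be told apart.

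The enzyme made from ACSL4 activates arachidonic acid and other polyunsaturated fatty acids by joining them to coenzyme A. Activated fatty acids enter membrane phospholipids, triglycerides and oxidation. The SREBP proteins are membrane-bound transcription factors that switch on genes of sterol and fatty acid synthesis. Free polyunsaturated fatty acids are known to restrain SREBP-1, the member for fatty acid synthesis. The series connects ACSL4 with histone H3 acetylation and with SNAIL, a repressor of E-cadherin encoded by SNAI1.

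The 6 libraries held between 28673938 and 41310069 counts, and 14135 genes passed the filter. Levels are counts scaled to library size with TMM factors (CPM), and 3 values in a row are replicates 1, 2 and 3 of a group. A gene is called where its adjusted p lies below 0.05 in edgeR's quasi-likelihood test, and log2 fold changes carry their standard error (SE). The first principal component of log2 CPM carried 58.6% of the variance of the 6 libraries and separated control from PRGL493. Counting noise alone does not cover the spread within a group: pairs of controls gave chi-square values of 4.03 to 5 per degree of freedom, and pairs of PRGL493 libraries 4.73 to 10. Knockdown pairs spread more, at 8.83 to 34.1, and those libraries enter the estimate of spread behind each call. The line's markers VIM (1720 CPM), CD44 (1330 CPM), AXL (1440 CPM) and EGFR (274 CPM) were high in control cells, while SPARC, also listed as a marker, stood at 0.884 CPM. The hormone receptor genes ESR1 and PGR, the luminal factor FOXA1 and the basal keratins KRT5 and KRT14 had at most 6 counts in any library. The remaining markers of those lists passed the filter, 5 of 8 luminal and hormone receptor genes, among them KRT8 at 434 CPM and GATA3 at 11.1 CPM in control, and 2 of 4 basal genes, at means of 2 and 1.06 CPM. Of 19 markers of other cell types 14 fell below the filter, PTPRC, CD3E, DCN, HBA1 and HBB had no count in controls, and the summed level was 162 to 177 CPM in controls and 121 to 133 CPM with PRGL493, most of it from CD68 and CD14. Without that pair it was 12.8 to 14.6 and 9.76 to 11.3 CPM. In bulk RNA fewer cells of a kind and less RNA per cell cannot be told apart.

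With PRGL493 3030 genes rose (21.4% of those tested) and 2879 fell (20.4%), together 41.8%. Fitted on the 6 libraries alone, 3678 rose and 3536 fell. Without knockdown replicate 2 the counts were 3720 and 3412. Most changes were small: 75.9% of the called genes moved by less than 1.5-fold, and called genes had a median absolute log2 fold change of 0.36. Changes of at least 2-fold were mainly falls, with 451 genes lower (3.19%) and 70 higher (0.495%). The median log2 fold change over all tested genes was 0.01, and the middle of the distribution ran from -0.21 to 0.20. All 3 PRGL493 libraries lay above all 3 controls in 30.1% of tested genes and below them in 27.2%. The group counts below are read against those shares, which were not adjusted for transcript length or GC content. Among genes with a known transcript length, 14.2% rose and 23.0% fell in the shortest quartile, and 22.8% and 18.2% in the longest. In the quartile lowest in GC 14.1% rose and 23.6% fell, and in the highest 27.7% and 18.6%.

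**Figure D1:**
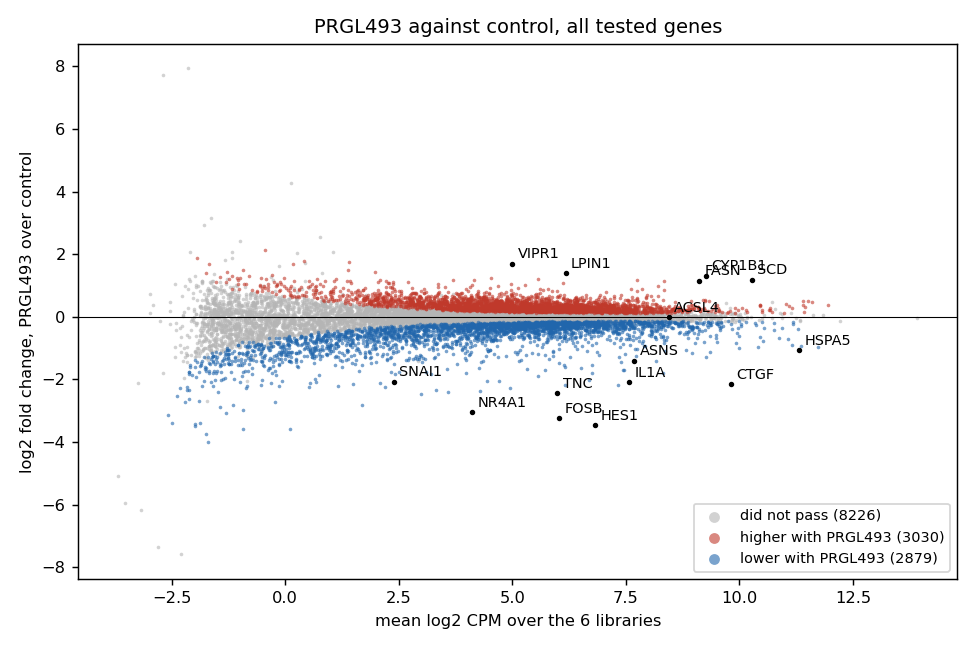
Log2 fold change of PRGL493 over control (y axis) against mean log2 CPM over the 6 libraries (x axis) for the 14135 tested genes, coloured by call. The named falls reach further from 0 than the named rises, with HES1 at -3.46 and VIPR1 at 1.70.

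RNA of the inhibitor's target hardly differed. ACSL4 had a log2 fold change of -0.01 (95% interval -0.14 to 0.13, SE 0.06, adjusted p = 0.95), and control and PRGL493 libraries overlapped. Among the other long-chain synthetases, ACSL3, which favours saturated and monounsaturated substrates and coats lipid droplets, was at 134, 138 and 136 CPM in control and 178, 182 and 191 CPM with PRGL493. All 3 treated libraries lay above all controls (log2 fold change 0.44, SE 0.05, adjusted p = 2.8e-06). ACSL1 (0.05) and ACSL5 (0.01) did not pass. Of the 17 tested acyl-CoA synthetase, transporter and thioesterase genes 3 rose and 2 fell, with a median of 0.02, and the count of falls was 1 without control replicate 2 or PRGL493 replicate 2 or 3. ACOT1, a thioesterase, was among the rises (1.52 to 4.29 CPM), but it shares most of its sequence with ACOT2, so its counts are uncertain.

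Genes of cholesterol synthesis and uptake rose almost as a block. Of 30 members, all tested, 25 rose and 1 fell, and their median log2 fold change was 0.53. The sterol regulators come before the enzymes. SREBF2, the master transcription factor of the pathway, read 198, 203 and 195 CPM in control and 283, 286 and 259.6 CPM with PRGL493 (a log2 fold change of 0.48, SE 0.06, adjusted p = 4.5e-06). INSIG1, which holds the SREBP complex in the endoplasmic reticulum and is itself an SREBP target, went from 158, 165 and 159 to 273, 285 and 302 CPM (0.84, SE 0.05, adjusted p = 1.5e-09). In both genes the groups were fully separate. The escort protein SCAP (0.12) and INSIG2 (-0.03) did not pass. SREBF2 is shown because its promoter is one of 2 among 43 promoters of sterol and fatty acid genes with an exact sterol regulatory element, TCACNCCAC on either strand (4.7%, against 1.15% of all 27305 promoters and 1.08% of the 10439 promoters of tested genes). The window runs from 250 bases before to 50 after the start in RefSeq (GRCh38.p14, chr22:41832855-41833154, plus strand), and capitals mark the match.
SREBF2: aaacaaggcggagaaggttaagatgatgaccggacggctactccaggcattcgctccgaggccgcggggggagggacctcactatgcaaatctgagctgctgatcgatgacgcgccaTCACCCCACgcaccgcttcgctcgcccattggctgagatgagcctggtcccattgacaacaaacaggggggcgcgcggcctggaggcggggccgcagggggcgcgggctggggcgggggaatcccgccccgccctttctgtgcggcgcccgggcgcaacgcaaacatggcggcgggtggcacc
The match begins at position -133 relative to the start. The other promoter with a match was that of MID1IP1, which did not pass (log2 fold change 0.04). Among lists described below, 1 of 17 aryl hydrocarbon receptor promoters (5.9%), 1 of 32 immediate early and 1 of 49 ATF4 and tRNA synthetase promoters held the element. It stood in 0 promoters of the ER chaperone and G1/S lists. Here and below a match describes letters in this window and shows no binding, and a promoter without a match says nothing about the factor.

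The enzymes moved most evenly: 20 of 21 rose. LSS, which closes squalene epoxide into lanosterol, was at 176, 166 and 165 CPM in control and 324, 320.3 and 304 CPM with PRGL493 (a log2 fold change of 0.90, SE 0.06, adjusted p = 1.9e-09). DHCR7, the last step of the pathway, stood at 144, 149.7 and 140.2 against 267, 273 and 262 CPM (0.89, SE 0.05, adjusted p = 5.2e-10). In both the lowest treated library lay well above the highest control. SQLE, which makes squalene epoxide, rose by 0.76 (SE 0.06, adjusted p = 9.9e-08). PMVK, phosphomevalonate kinase, was the exception among the enzymes at 20.2, 20.1 and 17.9 CPM in control and 16.1, 14.8 and 13.0 CPM with PRGL493 (-0.41, SE 0.09, adjusted p = 0.0022). ABCG1, a cholesterol exporter and target of the liver X receptors, fell from 20.9, 22.8 and 20.5 to 11.9, 12.3 and 9.79 CPM (-0.92, SE 0.09, adjusted p = 5.6e-07), while the exporter ABCA1 (-0.04) did not pass.

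Fatty acid synthesis followed more unevenly, with 13 of 24 tested members higher, 2 lower and a median of 0.27. SREBF1, the regulator of this branch, read 212, 198 and 188 CPM in control and 312, 323 and 295 CPM with PRGL493 (0.64, SE 0.06, adjusted p = 1.6e-07), though it overlaps RAI1. ACACA, which makes malonyl-CoA, was among the rises. FASN, the fatty acid synthase, more than doubled from 383, 365 and 370.4 to 856, 882 and 756 CPM (1.16, SE 0.08, adjusted p = 2.6e-08). The desaturase SCD reached 1913, 1928 and 1781 CPM from 801, 829 and 838 CPM. Both genes were separate between groups, and SCD lies at chromosome 10, 100347233 to 100364826. Its promoter is shown for its CCAAT boxes, sites of the factor NF-Y that works beside SREBP. CCAAT occurred in 26 of 43 promoters of sterol and fatty acid genes (60.5%) and in 35.7% of all promoters (36.4% for tested genes). Of the 26 genes 24 rose, beside 25 of 30 members of the sterol list and 13 of 24 of the fatty acid list. CCAAT was not particular to rising lists: it stood in 85.7% of ER chaperone, 55.6% of G1/S and 53.1% of ATF4 and tRNA synthetase promoters. The window is chr10:100346983-100347282 on the plus strand, and capitals mark CCAAT.
SCD: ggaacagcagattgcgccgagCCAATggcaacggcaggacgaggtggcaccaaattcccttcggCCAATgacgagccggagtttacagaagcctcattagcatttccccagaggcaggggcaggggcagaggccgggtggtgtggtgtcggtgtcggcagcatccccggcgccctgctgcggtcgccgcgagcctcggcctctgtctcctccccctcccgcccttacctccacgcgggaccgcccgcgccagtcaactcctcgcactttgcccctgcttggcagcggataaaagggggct
These boxes begin at -229 and -186. Lower members of the list were OLAH, a thioesterase with under 1 CPM in every library, and the elongase ELOVL7 (23.3 to 16.8 CPM, log2 fold change -0.47). OLAH was not tested under a filter of at least 1 CPM.

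**Figure D2:**
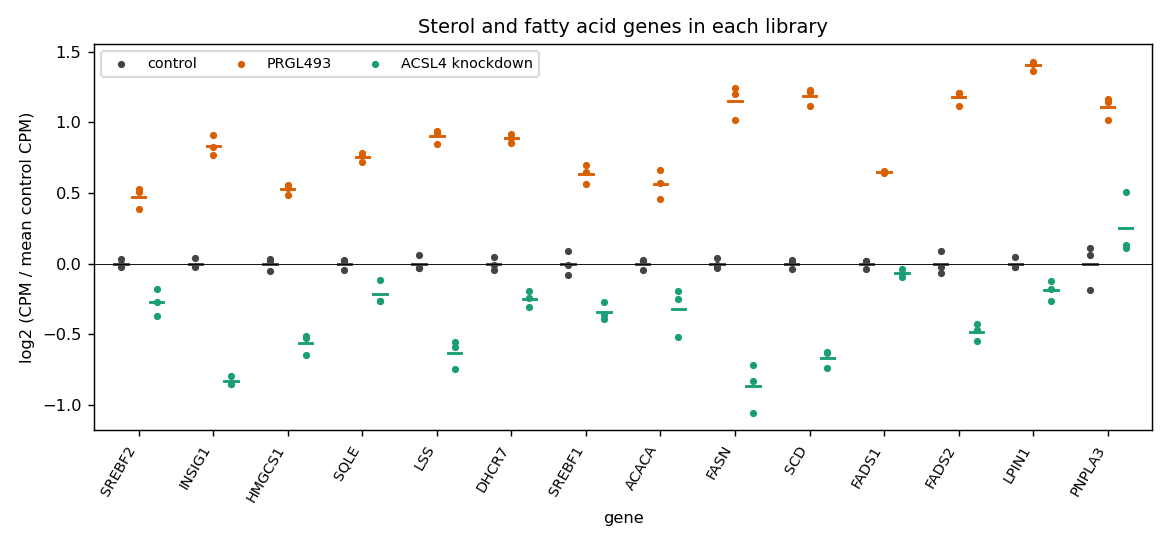
Each library's log2 ratio of CPM to the mean control CPM (y axis) for 14 sterol, fatty acid and triglyceride genes (x axis), with 3 points per group and a bar at their mean. PRGL493 points lie above 0 for each gene shown, while knockdown points of FASN, SCD and INSIG1 lie below it.

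Genes handling polyunsaturated fatty acids split by role. Of 4 tested desaturases and elongases 3 rose, FADS2 (log2 fold change 1.18) and FADS1 (0.65, SE 0.05, adjusted p = 1e-08) foremost, which overlap each other on the genome, and FADS3 fell (-0.36). Of 8 acyltransferases that remodel phospholipids 4 rose and 0 fell, among them LPCAT3, which inserts arachidonate (0.43). The calls of LPCAT1 and MBOAT7, also higher, are weaker, since 5 and 12 of 16 alternative analyses kept them. Eicosanoid genes went the other way: 0 of 10 tested rose and 5 fell. PTGS1, the constitutive cyclooxygenase, read 25.1, 24.5 and 23.4 CPM in control and 9.61, 10.5 and 9.14 CPM with PRGL493 (-1.32, SE 0.08, adjusted p = 6.4e-10). ALOX5AP, which presents arachidonate to 5-lipoxygenase, fell from 2.98, 3.31 and 2.93 to 0.876, 1.01 and 0.651 CPM (-1.86, SE 0.20, adjusted p = 1.3e-06), and ALOX15B from 3.11, 3.28 and 2.51 to 0.535, 0.734 and 0.620 CPM (-2.25, SE 0.21, adjusted p = 3.1e-07). PTGES2 and LTA4H fell too (-0.49 and -0.34), and PTGS2 stayed under 1 CPM on average and did not pass.

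Triglyceride and droplet genes showed no common direction, with 6 of 28 higher, 7 lower and a median of -0.08. LPIN1, a phosphatidate phosphatase that makes diacylglycerol, and PNPLA3, a lipase, were the 2-fold rises (log2 fold changes 1.40 and 1.11). Of 9 tested droplet genes 2 fell, 1 rose and 6 did not pass. The droplet coat gene PLIN2 fell from 94.2, 97.4 and 95.2 to 66.1, 65.4 and 62.4 CPM (-0.56, SE 0.05, adjusted p = 5.5e-07) and HILPDA by 0.67 on the log2 scale, while the coat gene PLIN3 rose (0.20). G0S2, an inhibitor of lipid breakdown, fell by 0.95 on the log2 scale. Of 39 tested PPAR and fatty acid oxidation genes 7 rose and 12 fell. ANGPTL4, a PPAR target that blocks lipoprotein lipase, read 9.37, 11.4 and 9.14 CPM in control and 2.58, 3.32 and 2.51 CPM with PRGL493 (-1.84, SE 0.13, adjusted p = 1e-08). CPT1A, the gate of mitochondrial oxidation, fell from 51.6 to 55.0 CPM in controls to 37.3 to 38.9 CPM with PRGL493 (-0.48, SE 0.06, adjusted p = 3.7e-06). Peroxisomal members were the main rises, 6 of 9, such as ACAA1 (0.52). The count of lower members was 19 when only the 6 libraries were fitted.

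Since the series concerns histone acetylation, enzymes that supply acetyl-CoA and those that write or erase acetyl marks were counted. Of 25 tested supply genes 10 rose and 6 fell. ACLY, which splits citrate into acetyl-CoA, rose by 0.28 (SE 0.05, adjusted p = 0.00025) and ACSS2, which activates acetate, by 0.55 (SE 0.06, adjusted p = 1.6e-06). Of 25 histone acetyltransferase genes and their partners 11 rose and 2 fell, with a median of 0.18. BRPF3, a scaffold of the KAT7 complex, read 102, 106 and 104 against 150.1, 154 and 149 CPM (0.54, SE 0.07, adjusted p = 9.6e-06), and KAT2A read 47.8, 40.7 and 43.6 against 53.6, 56.5 and 50.1 CPM (0.28, SE 0.07, adjusted p = 0.0033). EP300 (0.37) and CREBBP (0.34), the broad acetyltransferases, did not pass. Among 23 deacetylase genes and scaffolds 5 rose and 2 fell, and HDAC2 was the class member that fell (-0.21, SE 0.05, adjusted p = 0.0032). The count of rises was 2 without PRGL493 replicate 1, and it also moved by over 1.5 times without PRGL493 replicate 2 or control replicate 3. In the acetyltransferase list the count of falls was 1 without control replicate 2 or 3 or PRGL493 replicate 3. Histone marks were not analysed here.

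Amino acid stress genes fell broadly. ATF4 is translated when amino acids run short or misfolded proteins gather, and switches on genes for amino acid synthesis, amino acid import and tRNA charging. Its own RNA was at 313, 296 and 295 CPM in control and 309, 318 and 301 CPM with PRGL493 (0.04, adjusted p = 0.62), with overlapping groups. Yet 29 of 40 tested members of the ATF4 list fell and 5 rose, with a median of -0.53. ASNS, asparagine synthetase, dropped from 327, 339 and 334 to 126, 125 and 129.6 CPM (-1.39, SE 0.05, adjusted p = 5.2e-12). In the serine pathway PSAT1 went from 296, 308 and 313 to 146, 148 and 156 CPM (-1.03, SE 0.05, adjusted p = 6.8e-11) and PHGDH from 21.8, 20.1 and 21.1 to 10.3, 9.79 and 11.2 CPM (-1.01, SE 0.09, adjusted p = 1.3e-07). Treated and control libraries did not overlap in any of them. The stress regulators DDIT3 (-1.04, adjusted p = 3.3e-09) and TRIB3 (-0.91, adjusted p = 1.4e-08) fell as well. CEBPB was also called lower (-0.92, SE 0.25, adjusted p = 0.027), but control replicate 3 (96.3 CPM) lay below the other two (135 and 157 CPM), and the call was lost without control replicate 1 or 2 or without any PRGL493 replicate. Rises on the list were DDIT4, an inhibitor of mTORC1 (222, 209 and 201 against 421, 429 and 398 CPM, log2 fold change 0.98, adjusted p = 1.6e-09), ATF5, which overlaps NUP62 (0.69), the kinases EIF2AK1 (0.36) and EIF2AK4 (0.27), and ALDH18A1 (0.18, lost without PRGL493 replicate 2). CHAC1, often used as an ATF4 reporter, did not pass (0.03).

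Among 20 cytosolic aminoacyl-tRNA synthetases, which load tRNAs with amino acids, 16 fell and 1 rose, and the median was -0.51. AARS, the alanine enzyme, read 334, 329 and 326 CPM in control and 178, 174 and 163 CPM with PRGL493 (-0.94, SE 0.05, adjusted p = 3.4e-10). WARS, for tryptophan, read 231, 235 and 239.6 against 127, 129.6 and 132 CPM (-0.86, SE 0.05, adjusted p = 3e-10). QARS, for glutamine, was the rise at 147, 149 and 146 against 176, 168 and 164 CPM (0.20, SE 0.06, adjusted p = 0.009), a call lost without PRGL493 replicate 1. Their mitochondrial counterparts, a list added after a first look at the values, moved less: 6 of 17 fell and 0 rose, with a median of -0.14. The ATF4-C/EBP composite element, TGATGNAA on either strand, stood in 12 of 49 promoters of the ATF4 and cytosolic synthetase lists (24.5%) against 3.67% of all promoters and 1.55% of those of tested genes. Of those 12 genes 11 fell, and the 12th was CHAC1.

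Chaperones of the endoplasmic reticulum (ER) fell alongside. Of 24 members 18 fell and 2 rose, with a median of -0.33, and 13 of 14 chaperones and folding enzymes were among the falls. HSPA5, also called BiP, the main ER chaperone and sensor of misfolded proteins, dropped from 3729.7, 3819.6 and 3542 to 1747, 1779 and 1756 CPM (-1.07, SE 0.05, adjusted p = 1.6e-11). HSP90B1, its HSP90 partner, went from 2387, 2453 and 2337 to 1444, 1484 and 1539 CPM (-0.68, SE 0.05, adjusted p = 6.5e-09), and HERPUD1, which aids ER-associated degradation, from 100.1, 108 and 106 to 66.6, 66.2 and 67.4 CPM (-0.65, SE 0.06, adjusted p = 1.6e-07). All 3 were separate between groups. The rises, SYVN1 and DERL1 (0.15 and 0.13), are weak, since 8 and 4 of 16 alternative analyses kept them. HSPA5 is shown for its ER stress element, searched on either strand, a motif that begins with a CCAAT box. It stood in 6 of 21 promoters of this list (28.6%) and in 0.0806% of all promoters (0.144% for tested genes), and 5 of those 6 genes fell, with CRELD2 not passing. The window is chr9:125241294-125241593 on the minus strand, and capitals mark the element, which begins at -66.
HSPA5: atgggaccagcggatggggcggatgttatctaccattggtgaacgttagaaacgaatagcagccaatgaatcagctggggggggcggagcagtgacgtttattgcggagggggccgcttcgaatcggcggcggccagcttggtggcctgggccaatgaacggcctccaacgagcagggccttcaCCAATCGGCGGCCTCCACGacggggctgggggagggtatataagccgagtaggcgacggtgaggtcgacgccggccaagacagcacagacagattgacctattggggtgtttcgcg
Of 14 cytosolic heat shock genes 5 rose and 2 fell, HSPA1B for instance reading 234, 240.0 and 229 against 309, 316 and 302 CPM (0.40, SE 0.05, adjusted p = 8.5e-06), with reads that its twin HSPA1A could share. The count of rises was 3 without control replicate 3, and it also moved by over 1.5 times without PRGL493 replicate 1 or 3, and 4 fell when only the 6 libraries were fitted.

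**Figure D3:**
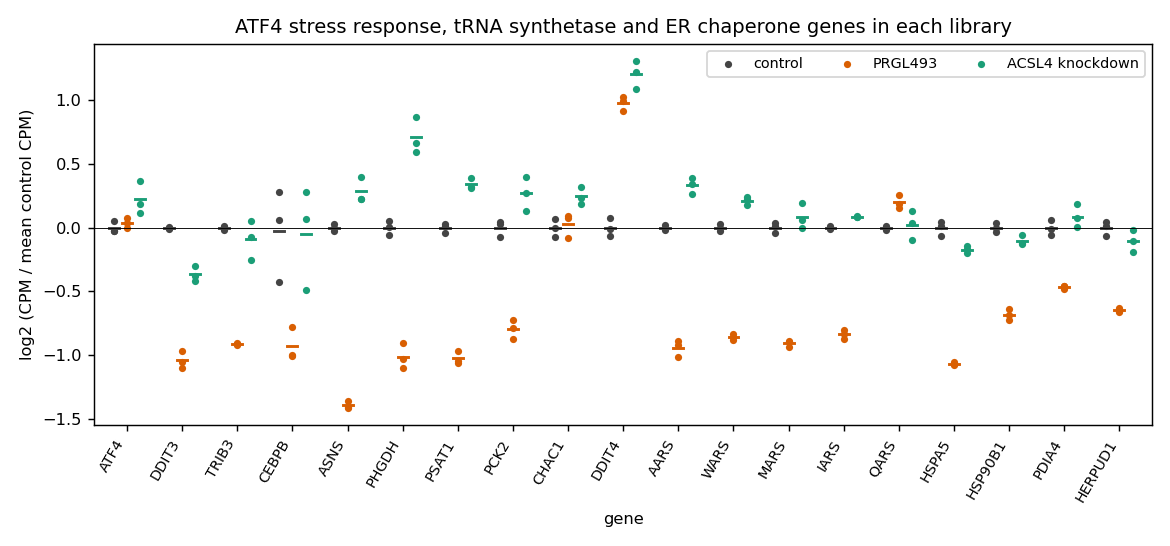
Each library's log2 ratio of CPM to the mean control CPM (y axis) for 19 ATF4, tRNA synthetase and ER chaperone genes (x axis), with 3 points per group and a bar at their mean. PRGL493 points of ASNS, AARS and HSPA5 lie far below the knockdown points, ATF4 and CHAC1 lie near 0 with PRGL493, and DDIT4 is high in both treatments.

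Immediate early genes, which are transcribed within minutes of a growth or stress signal, made up many of the deepest falls. Of 40 members 35 fell and 2 rose, with a median of -0.71. HES1, a Notch-responsive repressor, went from 385, 424 and 314 to 34.2, 33.8 and 34.3 CPM (-3.46, SE 0.13, adjusted p = 3.2e-08). FOSB, an AP-1 subunit, dropped from 214, 191 and 197 to 20.5, 26.5 and 17.2 CPM (-3.24, SE 0.17, adjusted p = 1.5e-06). The orphan receptor NR4A1 read 48.8, 50.5 and 50.2 against 5.84, 6.99 and 5.33 CPM (-3.05, SE 0.09, adjusted p = 1.4e-13). The repressor ATF3 fell from 204, 209 and 209 to 49.5, 54.1 and 50.3 CPM (-2.02) and EGR3 by 2.41 on the log2 scale. Treated libraries of these genes lay far below every control. The AP-1 partner JUN went the other way, from 424, 409.7 and 396 to 585, 586 and 560.1 CPM (0.49, SE 0.05, adjusted p = 4.6e-07), as did JUND (0.27, adjusted p = 0.0012). EGR1, a zinc finger factor of the serum response, read 1918, 1859 and 1917 against 966, 1012 and 921 CPM (-0.97, SE 0.12, adjusted p = 0.00025). Its promoter is shown for its pair of CArG boxes, sites of serum response factor, which 2 of 32 promoters of this list held (6.2%, against 1.29% of all and 1.02% for tested genes), EGR1 and SRF. The window is chr5:138465229-138465528 on the plus strand, and capitals mark the boxes, which begin at -105 and -83.
EGR1: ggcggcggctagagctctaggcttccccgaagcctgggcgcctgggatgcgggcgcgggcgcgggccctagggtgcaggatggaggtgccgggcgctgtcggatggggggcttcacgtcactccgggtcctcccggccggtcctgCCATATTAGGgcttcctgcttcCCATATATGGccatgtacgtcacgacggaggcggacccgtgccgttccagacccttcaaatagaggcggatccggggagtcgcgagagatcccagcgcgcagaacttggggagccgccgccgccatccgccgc
The cyclic AMP response element, TGACGTCA, stood in 4 of 32 (12.5%, against 1.98% of all and 3.19% for tested genes): DUSP1, MAFF and PPP1R15A, which fell, and JUND, which rose.

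Growth factor ligands were mostly lower. Of 7 EGFR-family ligands 6 fell, HBEGF from 331, 328 and 322 to 137, 143 and 135 CPM (-1.24, SE 0.05, adjusted p = 3.9e-12), while EGFR itself did not pass (-0.11). Of 7 phosphatase genes that limit MAP kinases 3 fell, DUSP5 (-1.78), DUSP6 (-0.94) and DUSP8 (-0.32), 0 rose and 4 did not pass. Of 5 ETS factors and other genes read as ERK output 2 rose, ETV1 (0.40) and CCND1 (0.17), and 0 fell, with ETV4 (-0.01) and ETV5 (0.07) among those that did not pass. Of 22 YAP and TEAD target genes 13 fell and 3 rose. CTGF, a matricellular protein, went from 1863, 1992 and 1832 to 428, 422 and 427 CPM (-2.15, SE 0.06, adjusted p = 5.8e-14), and CYR61, its relative, from 4885, 4813 and 4608 to 2479, 2443 and 2439 CPM (-0.96, SE 0.05, adjusted p = 9.8e-11). Both genes were tight within each group. YAP1 (-0.08) and WWTR1 (0.12) did not pass. Of 11 Notch genes 7 fell and 0 rose, among them HES4 (-1.25) and the receptor NOTCH3 (-0.88).

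Cytokine and NF-kB genes divided. Of 9 tested cytokines 8 fell and of 7 chemokines 5 fell, and 0 of either rose. IL1A, an alarm cytokine, read 377, 399 and 405 CPM in control and 91.9, 90.6 and 94.6 CPM with PRGL493 (-2.09, SE 0.05, adjusted p = 5.8e-14). IL24 dropped from 68.5, 68.2 and 67.9 to 14.5, 13.4 and 14.4 CPM (-2.27, SE 0.07, adjusted p = 2.4e-13), though it overlaps the low FCMR, and IL11 from 31.6, 28.2 and 28.5 to 8.56, 7.62 and 8.98 CPM (-1.81, SE 0.09, adjusted p = 1.4e-10). IL6 (-1.28) and the neutrophil attractant CXCL8 (-1.28) fell as well, and so did CXCL2 (-1.81), whose counts CXCL1 and CXCL3 could share. By contrast 7 of 12 genes of the NF-kB module rose and 2 fell. NFKB1 read 55.3, 50.4 and 53.9 against 66.4, 66.7 and 63.9 CPM (0.30, SE 0.06, adjusted p = 0.00059) and RELA 129, 122 and 131 against 164, 164 and 151 CPM (0.33, SE 0.05, adjusted p = 0.00012), small but separate shifts in subunits of the factor. The falls of the module were the inducible feedback genes NFKBIZ (-1.71) and TNFAIP3 (-1.19). BIRC3, among the rises at 0.33, was not called without PRGL493 replicate 3. Of 43 interferon-stimulated genes 4 rose and 11 fell, OASL among the falls (-1.03). The count of rises in that list ran from 2 to 7 over the alternatives and moved by over 1.5 times without control replicate 2 or 3, knockdown replicate 2 or PRGL493 replicate 2.

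**Figure D4:**
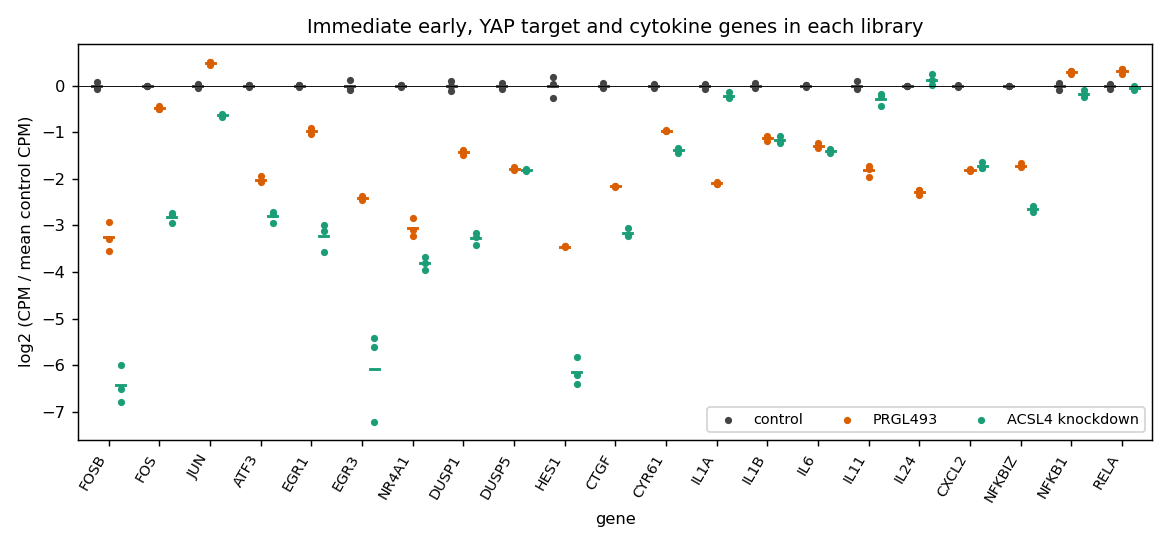
Each library's log2 ratio of CPM to the mean control CPM (y axis) for 21 immediate early, YAP target and cytokine genes (x axis), with 3 points per group and a bar at their mean. All HES1 points lie below -3 with PRGL493 and lower still in knockdown, IL1A, IL11 and IL24 are low with PRGL493 and closer to 0 in knockdown, and JUN, NFKB1 and RELA lie above 0 with PRGL493.

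SNAI1, named in the series title, had a mean of 10.7 CPM in control and 2.51 CPM with PRGL493 (-2.08, SE 0.12, adjusted p = 1.3e-09). It fell together with its relative SNAI2, which went from 49.2, 49.7 and 55.3 to 35.3, 31.7 and 32.6 CPM (-0.63, SE 0.07, adjusted p = 1.5e-06). The other tested factors of epithelial-mesenchymal transition, ZEB1 (-0.08), ZEB2 (0.12), SNAI3 (0.46) and FOXC1 (0.15), did not pass. Epithelial genes fell more often than they rose, 14 against 3 of 25 tested, and so did mesenchymal genes, 14 against 4 of 23, with medians of -0.29 and -0.41. CDH1, which encodes E-cadherin, was scarce and fell further, from 2.03, 2.04 and 1.99 to 0.876, 0.420 and 0.681 CPM (-1.57, SE 0.26, adjusted p = 0.00013). The tight junction gene CLDN1 read 56.8, 58.4 and 58.3 against 21.0, 21.1 and 23.2 CPM (-1.41, SE 0.07, adjusted p = 4.6e-11). VIM, the mesenchymal filament, did not pass (-0.03), CD44 rose (0.21) and S100A4 rose (0.56).

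Matrix genes were mostly lower. TNC, a matrix glycoprotein of migrating tumour cells, fell from 145, 149.5 and 148 to 27.8, 27.2 and 26.6 CPM (-2.44, SE 0.06, adjusted p = 6.1e-14). In a list of collagens and laminins added after a first look at the values, 21 of 37 tested genes fell and 0 rose, with a median of -0.56. COL6A3 read 68.8, 72.7 and 72.0 against 22.6, 22.7 and 21.8 CPM (-1.67, SE 0.08, adjusted p = 1.4e-10). LAMB3, a laminin of basement membranes, fell by 0.79 on the log2 scale, while LAMA3 did not pass (0.24). The secreted matrix organiser FN1 did not pass (0.02). Of 24 proteases and their inhibitors 15 fell and 2 rose (1 to 4 rose over the alternatives, 1 without control replicate 1), MMP1 from 36.7, 36.9 and 35.6 to 15.2, 15.8 and 16.4 CPM (-1.20, SE 0.08, adjusted p = 5.7e-09). Among serpins, also a list added after a first look, 11 of 17 fell and 0 rose, including SERPINA3 (9.43, 10.8 and 9.44 against 2.16, 1.96 and 2.11 CPM, -2.25).

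Genes of the G1/S transition and DNA replication rose together: 36 of 41 rose and 0 fell, with a median of 0.44. E2F1, a driver of S phase entry, read 37.6, 37.0 and 35.0 CPM in control and 58.5, 56.8 and 56.1 CPM with PRGL493 (0.65, SE 0.06, adjusted p = 2.2e-07). CCNE2, a cyclin of that transition which overlaps INTS8, read 8.06, 7.92 and 8.68 against 14.4, 17.2 and 16.6 CPM (0.96, SE 0.09, adjusted p = 3.3e-07). The sliding clamp PCNA went from 76.7, 84.0 and 80.1 to 124, 121 and 122 CPM (0.61, SE 0.07, adjusted p = 1.8e-06), and LIG1, which seals replicated strands, from 30.7, 26.7 and 26.8 to 47.4, 45.6 and 43.6 CPM (0.70, SE 0.07, adjusted p = 5.5e-07). The groups were separate in each. PCNA is shown for its E2F site, TTTCCCGC on either strand, which 10 of 36 promoters of the list held (27.8%, against 1.66% of all and 2.62% for tested genes), all 10 of genes that rose. The window is chr20:5126573-5126872 on the minus strand, and the site in capitals, read on the opposite strand, begins at -59.
PCNA: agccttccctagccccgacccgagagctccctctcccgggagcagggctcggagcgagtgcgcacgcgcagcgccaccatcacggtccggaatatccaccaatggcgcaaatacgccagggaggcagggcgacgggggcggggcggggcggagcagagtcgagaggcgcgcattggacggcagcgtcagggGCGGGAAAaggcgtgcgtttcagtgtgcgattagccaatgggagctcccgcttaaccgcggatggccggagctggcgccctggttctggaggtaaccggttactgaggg
G2/M genes moved less, with 17 of 51 higher, 3 lower and a median of 0.08, and MKI67 did not pass (0.25, SE 0.18, adjusted p = 0.32). The lower count ran from 2 to 8 over the alternatives, with 8 when only the 6 libraries were fitted. It also moved by over 1.5 times without knockdown replicate 1 or 2, with DESeq2, with upper-quartile scaling and under a filter of at least 1 CPM. Genes for ZNF zinc finger proteins, many of them DNA-binding repressors, formed the largest list, added after a first look: 208 of 462 tested rose and 18 fell, with a median of 0.28. ZNF114 rose from 7.89, 9.44 and 8.47 to 19.3, 18.2 and 20.3 CPM (1.16, SE 0.09, adjusted p = 3.7e-08). Many of them lie in clusters of similar sequence, so single counts may be shared.

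Targets of the aryl hydrocarbon receptor, which senses planar aromatic compounds, were among the larger rises, with 4 of 7 higher and 1 lower. CYP1A1, its classical target, read 11.1, 12.7 and 11.6 CPM in control and 26.0, 27.8 and 25.8 CPM with PRGL493 (1.17, SE 0.09, adjusted p = 3.7e-08). TIPARP, its feedback enzyme, read 149, 158 and 166 against 218, 224 and 224 CPM (0.49, SE 0.05, adjusted p = 9.6e-07). CYP1B1 (1.31) and NQO1 (0.35) rose as well, SERPINB2 fell (-1.73), and AHR itself did not pass (0.02). Against control in knockdown, 3 of the 7 targets were called higher and 1 lower, CYP1A1 (0.36) and CYP1B1 (0.38) among the rises. Compared directly, 5 of the 7 were lower in knockdown than with PRGL493 and 1 was higher. Of 31 antioxidant genes of the NRF2 list 10 rose and 3 fell, TXNRD1 (0.41) among the rises, while HMOX1 (0.12) did not pass. Glycolysis genes rose in 15 of 21 cases and fell in 5. PKM, pyruvate kinase, read 2505, 2482 and 2382 against 3565, 3560.1 and 3429 CPM (0.52, SE 0.06, adjusted p = 1.9e-06). The lactate and pyruvate importer SLC16A1 fell from 8.97, 8.99 and 9.57 to 2.65, 2.38 and 3.16 CPM (-1.75, SE 0.12, adjusted p = 8.3e-09). Of 15 hypoxia genes 3 rose and 8 fell, NDRG1 (-0.78) and EGLN3 (-0.68) among the latter, so the hypoxia genes did not share the direction of the glycolytic enzymes.

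**Figure D5:**
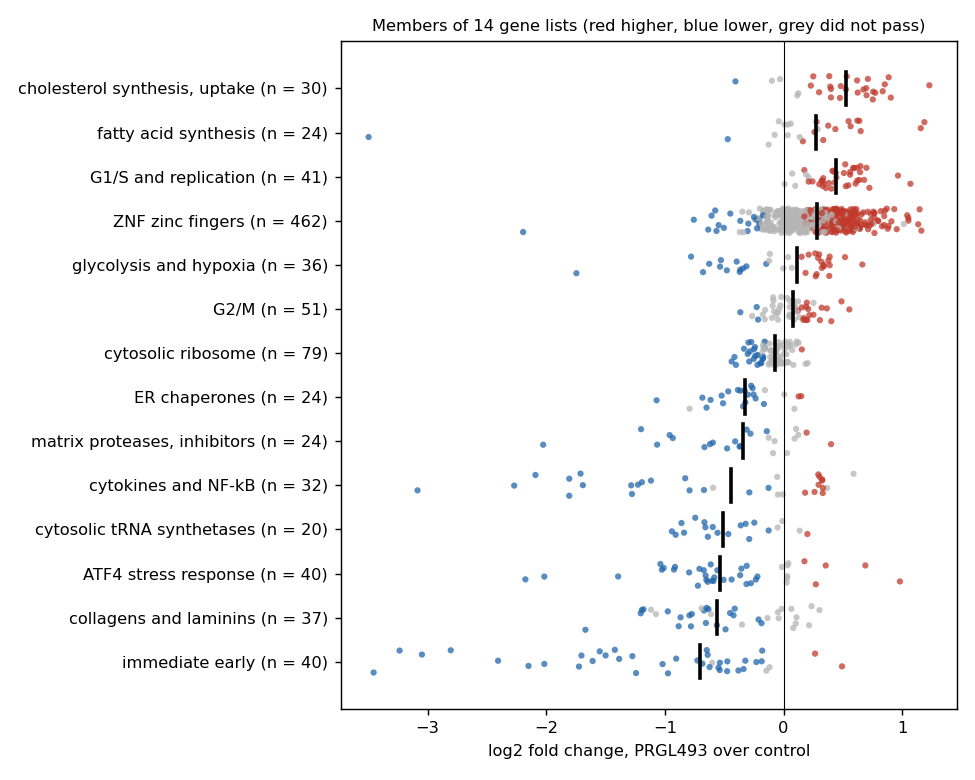
Log2 fold change of PRGL493 over control (x axis) of each tested member of 14 gene lists (y axis), red where higher, blue where lower and grey where the test was not passed, with a black bar at the median. Sterol and G1/S genes lie mostly right of 0 (medians 0.53 and 0.44), and tRNA synthetase, ATF4 and immediate early genes mostly left of it (medians -0.51, -0.53 and -0.71).

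Further genes are named for the size of their change, among those with separate groups and a mean log2 CPM of 2 or more. The largest rise was VIPR1, the receptor of vasoactive intestinal peptide (log2 fold change 1.70). MXD4, a partner of MAX that opposes MYC, doubled from 49.5, 48.4 and 45.4 to 101, 106 and 94.9 CPM (1.07, SE 0.07, adjusted p = 2.3e-09). NEK8, a ciliary kinase (1.19), ZKSCAN4, a zinc finger factor (1.16), and ICOSLG, a T cell costimulator (1.04), rose too, as did MCM9 (1.11) and ISM1 (1.07), which overlap ASF1A and TASP1. On the lower side HKDC1, a hexokinase-like enzyme, fell from 96.2, 90.8 and 88.2 to 24.6, 24.4 and 25.2 CPM (-1.89, SE 0.06, adjusted p = 3.2e-13). TNS4, a focal adhesion protein, fell from 19.8, 17.6 and 17.6 to 3.06, 3.67 and 3.41 CPM (-2.45, SE 0.10, adjusted p = 6.4e-12). GDF15, a stress cytokine already counted in the ATF4 list, fell from 155, 159 and 139.6 to 34.0, 32.4 and 33.9 CPM (-2.18, SE 0.08, adjusted p = 1.2e-12). SOST, a Wnt antagonist (-2.38), the kinase NUAK2 (-2.34), TNFSF15 (-2.19), the adaptor LAT2 (-2.10), CD22 (-2.05) and KRT81 (-2.03), a keratin with close paralogs, completed the deepest falls at this level of expression.

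The direct contrast of knockdown with PRGL493 libraries, whose fold changes set those 6 libraries against each other within the fit of all 9, called 3454 genes higher in knockdown (24.4%) and 3676 lower (26.0%). Both treatments were otherwise compared with the same 3 control libraries, so their values against control are given side by side and not correlated. In the sterol list 27 of 30 members were lower in knockdown than with PRGL493 and 1 was higher. Against control FASN was at 1.16 with PRGL493 and -0.86 in knockdown, and the direct difference was -2.02 (SE 0.08, adjusted p = 5.3e-11). INSIG1 was at 0.84 and -0.83 (direct difference -1.67, SE 0.05, adjusted p = 2.8e-13). In the ATF4 list 29 of 40 members were higher in knockdown, ASNS by 1.68 (SE 0.05, adjusted p = 5.3e-13), and so were 16 of 20 tRNA synthetases and 17 of 24 ER genes, HSPA5 by 0.90 (SE 0.05, adjusted p = 1.5e-10). Cytosolic ribosomal protein genes, of which 22 of 79 fell and 1 rose with PRGL493, were higher in knockdown in 69 cases. Its lower count ran from 14 without PRGL493 replicate 2 to 34 when only the 6 libraries were fitted.

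Immediate early genes were lower still in knockdown, 30 of 40 in the direct test, with EGR1 at a difference of -2.23 (SE 0.13, adjusted p = 1.1e-06) and 161 to 238 CPM in knockdown libraries. Several genes that fell with PRGL493 were higher in knockdown than with PRGL493: IL1A by 1.88 (SE 0.05, adjusted p = 9.5e-14), IL24 by 2.41 (SE 0.07, adjusted p = 1.4e-13), TNC by 2.18 (SE 0.06, adjusted p = 1.5e-13) and HKDC1 by 1.79 (SE 0.06, adjusted p = 7.6e-13). These genes are among the 20 largest falls with PRGL493, and the direct test uses the same PRGL493 libraries. Part of each difference is thus built in, and it is no separate result. Against control in knockdown IL1A (-0.21) and TNC (-0.26) were called lower, and IL24 (0.14) and HKDC1 (-0.10) did not pass. For other genes the direct difference did not pass: SNAI1 (-0.22, SE 0.14, adjusted p = 0.21), DUSP5 (-0.02, SE 0.05, adjusted p = 0.70), CXCL2 (0.09, SE 0.05, adjusted p = 0.19) and MMP1 (0.03, SE 0.08, adjusted p = 0.76). Against control in knockdown, 30 of 41 G1/S genes were also called higher and 0 lower. Of 462 ZNF genes 181 were higher there and 26 lower. Some genes were thus low in both treatments, SNAI1 and immediate early genes included, and others high in both. For either kind, a state of the shared control libraries and an effect of the treatments cannot be told apart.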

How the data were processed

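RNA-seq of 9 MDA-MB-231 libraries was deposited as a table of 26475 gene symbols with a column of expected counts per library; the authors had not scaled them for depth, as the totals show. The genome build was GRCh38, per the submitters' processing notes. The sources used here do not give the aligner, counter, annotation or strand setting, so counts of overlapping or near-identical genes are uncertain. Of the deposited values 10.5% were not whole, and all were rounded; the planned test assumed whole counts and was kept. In 6955 rows no library had a count, and 28 rows with a date for a symbol stayed in the totals but were not named.

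Genes were filtered with filterByExpr, scaled with TMM factors and fitted with edgeR 4.0.16 (R 4.3.3; robust quasi-likelihood, all 9 libraries, group as the only term, 6 residual degrees of freedom, biological coefficient of variation 6.38%). Benjamini-Hochberg adjustment ran over 14135 genes. The fit was tested on simulated data. Each group has 3 replicates of 1 engineered line, and the tests see only the spread among those. Alternatives were DESeq2 1.42.0, other scalings, other filters, a fit of 6 libraries, a replicate block and leaving out each library.

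Besides ACSL4 and SNAI1, the text names members of 43 gene lists and genes from the 20 largest rises and 20 largest falls among called genes whose groups were separate, whose symbol is established and whose mean log2 CPM was 2 or more. Members and lists were chosen with earlier results of these data known, and 4 lists after a first look at the values. List counts are descriptions without a test. Promoters came from RefSeq (GRCh38.p14). Some members are not reported here.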

Additional observations from a re-analysis of the deposited data

How the results depend on the processing

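In each of 16 alternatives the counts of genes higher and lower with PRGL493 stayed within 1.5 times the reported ones. The 2 counts were 2792 and 2865 with DESeq2 and 3678 and 3536 with the 6 libraries alone. Leaving out each of the 9 libraries gave 2333 to 3720 higher and 2375 to 3412 lower genes. ACSL4 was not called in any alternative, and SNAI1 was lower in each, from -2.16 to -2.02. Other scalings moved the share of calls that were higher from 51.3% to between 46.2% and 54.9%. The 20 largest rises and 20 largest falls kept direction and call, while ACSL4, not called, ran from -0.04 to 0.03. Of 878 called list members 670 were called in every alternative, 208 were lost in at least 1, and 0 were called in the opposite direction. Of the list counts 23 of 82 moved by over 1.5 times in some alternative, most of them counts under 10.

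The replicate block gave 2876 higher and 2759 lower genes. Replicate numbers gave no sign of pairing: same-numbered control and PRGL493 libraries had correlations of deviations of -0.08, -0.08 and -0.02, and no library correlated best with its own number. Pairs with different numbers ran from -0.005 to 0.08. Correlations this small among 3 libraries per group do not settle whether samples were paired. The scarcest genes rest on few counts. Below a mean log2 CPM of 0, 48 of 1534 genes were called higher and 247 lower, with a median log2 fold change of -0.225. From 0 to 2 the median was -0.113, and in the bins above 2 it lay between 0.0127 and 0.0351. The cause of this excess of falls was not tested.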

Other observations

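Scarce genes held most of the larger changes in both directions. Of the 451 genes at least 2-fold lower with PRGL493, 316 had a mean log2 CPM below 2, and so had 46 of the 70 genes at least 2-fold higher. Of all 14135 tested genes, 1534 had a mean below 0 and 1528 a mean of 0 to 2. Against control, 214 of those 316 were not called in knockdown, and in the direct test 206 were higher in knockdown than with PRGL493. The 316 genes were chosen for low values in the same PRGL493 libraries that the direct test uses. An excess higher in knockdown is thus partly built in, and the count is no separate result. ESRP1, a splicing regulator of epithelial cells, was at 0.688, 0.973 and 0.795 CPM in control and at 0.0730, 0.00 and 0.0929 CPM with PRGL493. CCL20, a chemokine, read 0.851, 0.844 and 1.38 against 0.0730, 0.0350 and 0.248 CPM. KRT17, a basal keratin, read 1.90, 2.37 and 1.74 against 0.316, 0.315 and 0.279 CPM (log2 fold change -2.71), and MMP9, a gelatinase, 1.38, 1.27 and 1.22 against 0.341, 0.350 and 0.248 CPM (-2.03). These levels rest on few counts, and ESRP1 and CCL20 were not tested under a filter of at least 1 CPM in 3 libraries.

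Organelle genes moved little. Of 77 mitochondrial ribosomal protein genes 5 rose and 19 fell with PRGL493, and of 78 oxidative phosphorylation genes 7 rose and 16 fell, with medians of -0.07 and -0.05. These counts depended on the libraries fitted. Over 16 alternatives the mitochondrial ribosomal genes gave 2 to 10 rises and 14 to 29 falls, and the oxidative phosphorylation genes 3 to 10 rises and 10 to 23 falls. Both counts of rises were lowest without PRGL493 replicate 1, and both counts of falls without control replicate 2. Among 24 lysosome and autophagy genes 8 rose and 3 fell, and the higher count was 5 without control replicate 3 and 13 with the 6 libraries alone. ATP6V0D1, a subunit of the proton pump, read 46.6, 52.0 and 44.4 CPM in control and 88.1, 83.3 and 84.3 CPM with PRGL493 (0.84, SE 0.08, edgeR adjusted p = 3.7e-07), SQSTM1, an autophagy receptor, rose by 0.51, and MAP1LC3B fell by 0.59 on the log2 scale. Among ferroptosis and iron genes 5 of 23 rose and 6 fell: the ferritin gene FTL rose (0.47), the cystine importer SLC7A11 fell (-0.51), and GPX4 did not pass (0.23).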
